A study of Citrus maxima and Citrus sinensis with 8 samples.

Results

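This account concerns the effect of aluminium on leaf mRNA, averaged over 2 citrus species, Citrus sinensis (sweet orange) and Citrus grandis (pummelo, labelled with the synonym Citrus maxima). It uses all 8 libraries of the series. By their labels, 4 came from leaves of seedlings treated with aluminium and 4 from control leaves. The aluminium side held 2 libraries of C. sinensis and 2 of C. grandis from seedlings given aluminium for 18 weeks, and the control side held 2 libraries of each species. Each library came from leaves of 5 seedlings, each in its own pot, that were pooled into 1 replicate. The labels and files used here do not state the aluminium concentration, the cultivars or the age of the leaves. A pool of whole leaves gives 1 level per transcript over all its cells, so that fewer cells of a type and less RNA per cell cannot be told apart.

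Aluminium dissolves as a toxic ion in acid soils. The injury is known best from roots, where the ion stops the growth of the tip. Plants are known to hold it back by releasing organic acid anions through malate and citrate transporters, and to store it inside the cell in vacuoles. In leaves the long-term effects are thought to follow largely from impaired roots and include lower nutrient contents and lower photosynthesis. The species were set against each other because they differ in tolerance, C. sinensis being known as the species that withstands aluminium better. An averaged effect asks a different question, which is what aluminium did to leaf transcripts in both.

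The files give gene IDs and do not pair them with gene names, so that roles, pathways and leaf markers could not be looked up and few IDs are printed. The values are FPKM, the fragments on a gene scaled by its length and by the library total. The totals behind the FPKM, recovered from the values, ranged from 16443205 to 19794247 reads. At the median length of the genes tested, 1720 bp, 3 reads correspond to between 0.0881 and 0.106 FPKM. The replicates were not equally alike. Their spread beyond counting error over genes with many reads, on the log2 scale, was 0.19 for C. sinensis aluminium, 0.095 for C. sinensis control, 0.0226 for C. grandis aluminium and 0.246 for C. grandis control. The C. grandis aluminium libraries thus differed by little more than counting error. Whether they carry the spread between separate pools was not tested. With them merged into 1 replicate, the averaged test described next called 186 rises and 221 falls.

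Averaged over both species, 1199 genes rose and 1173 fell with aluminium. The test was limma on log2(FPKM + 1) with species as an additive term, over 16327 genes with a mean of at least 1 FPKM, at a Benjamini-Hochberg adjusted p below 0.05. The genes that rose were 7.34% and those that fell 7.18% of the genes tested, 14.5% together. The rises were the larger changes. At least a 2-fold change was reached by 426 rises, 2.61% of the genes tested, and by 137 falls, 0.839%. At least a 4-fold change was reached by 120 and 16. The median log2 change was 0.78 among the genes that rose, with quartiles of 0.55 and 1.25, and -0.60 among those that fell, with quartiles of -0.80 and -0.47. The near balance of the counts depended on the scaling: with each library centred on its median, 966 genes rose and 1641 fell, although rises of at least 2-fold still outnumbered such falls, at 360 against 170 in a count added after seeing the data. The counts also rested on single libraries. Without C. grandis aluminium replicate 1 or 2 they were 195 rises with 228 falls and 179 with 217. Without C. sinensis control replicate 1 or 2 they were 390 with 396 and 365 with 382, and without C. grandis control replicate 1 they were 632 with 779.

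**Figure D1:**
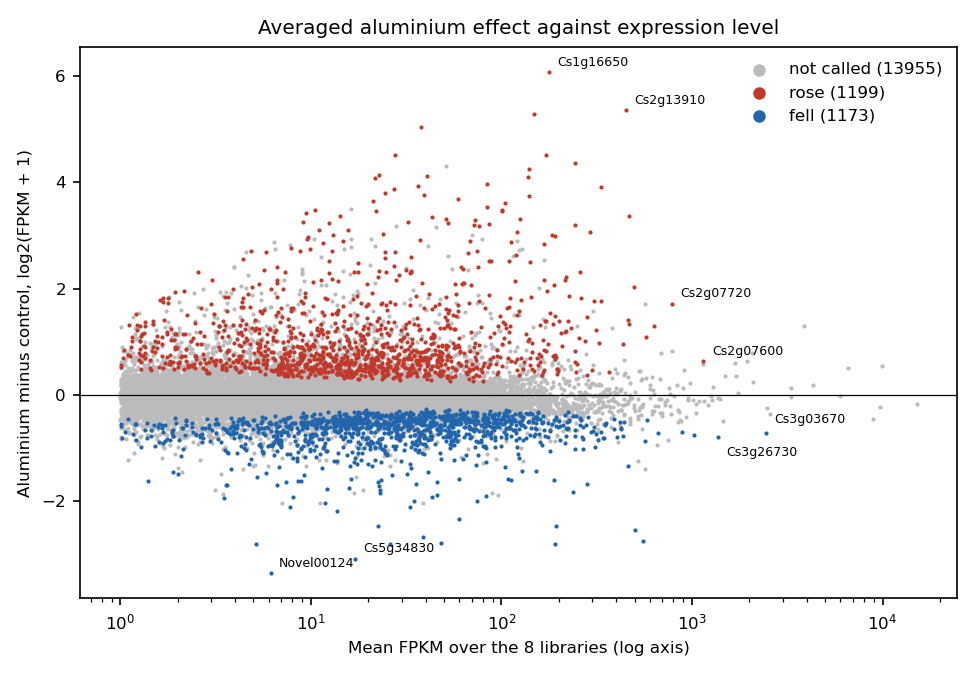
Averaged log2 change with aluminium, on the log2(FPKM + 1) scale, against the mean FPKM over the 8 libraries (log axis), 1 point per gene tested. The 1199 genes that rose are red and reach a log2 change of 6.08, while the 1173 that fell are blue and reach -3.35.

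The genes with the largest averaged changes, 2 in each direction, were chosen among those on one side of the controls in both species. Their separation within each species is thus a condition of the choice. Cs2g13910 stood at 224 and 480 FPKM in C. sinensis aluminium leaves against 4.38 and 9.10 FPKM in C. sinensis control leaves, and at 1403 and 1419 FPKM in C. grandis aluminium leaves against 29.4 and 45.0 FPKM in C. grandis control leaves. Every aluminium library was above every control library of either species. The averaged log2 change was 5.36 (SE 0.29, limma adjusted p = 0.00135), and the call held whichever library was left out. Cs1g16650 stood at 310 and 0.675 FPKM in C. sinensis aluminium leaves against 0.395 and 0.463 FPKM in C. sinensis control leaves, and at 558 and 550.2 FPKM in C. grandis aluminium leaves against 0.633 and 1.32 FPKM in C. grandis control leaves. Aluminium libraries lay above the controls of their own species, but C. sinensis aluminium replicate 2 did so by few reads, 10 against 6 and 7. It was far below the other aluminium libraries and within the range of the C. grandis controls. The averaged log2 change of 6.08 had an SE of 1.54 (limma adjusted p = 0.0387). Leaving out any library but C. sinensis aluminium replicate 2 ended this call, at limma adjusted p-values of 0.0774 to 0.117, and leaving out that library gave a log2 change of 8.0 (limma adjusted p = 1.05e-06).

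Of the genes that fell most, Novel00124 stood at 0.205 and 0.360 FPKM in C. sinensis aluminium leaves against 12.5 and 17.7 FPKM in C. sinensis control leaves, and at 0.05 and 0.104 FPKM in C. grandis aluminium leaves against 4.54 and 13.8 FPKM in C. grandis control leaves. These aluminium values rest on 4, 8, 1 and 2 reads, so the transcript was close to the limit of detection in all 4 aluminium libraries. Its averaged log2(FPKM + 1) change was -3.35 (SE 0.30, limma adjusted p = 0.0032), which understates the change of a gene this low: it was -5.42 with a pseudocount of 0.1 and -5.93 with voom on recovered reads. Cs5g34830 stood at 3.14 and 3.18 FPKM in C. sinensis aluminium leaves against 23.0 and 23.3 FPKM in C. sinensis control leaves, and at 1.45 and 2.23 FPKM in C. grandis aluminium leaves against 62.7 and 17.6 FPKM in C. grandis control leaves. Its averaged log2 change was -3.08 (SE 0.39, limma adjusted p = 0.0052). All 4 aluminium libraries lay below all 4 controls. Both calls held whichever library was left out.

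**Figure D2:**
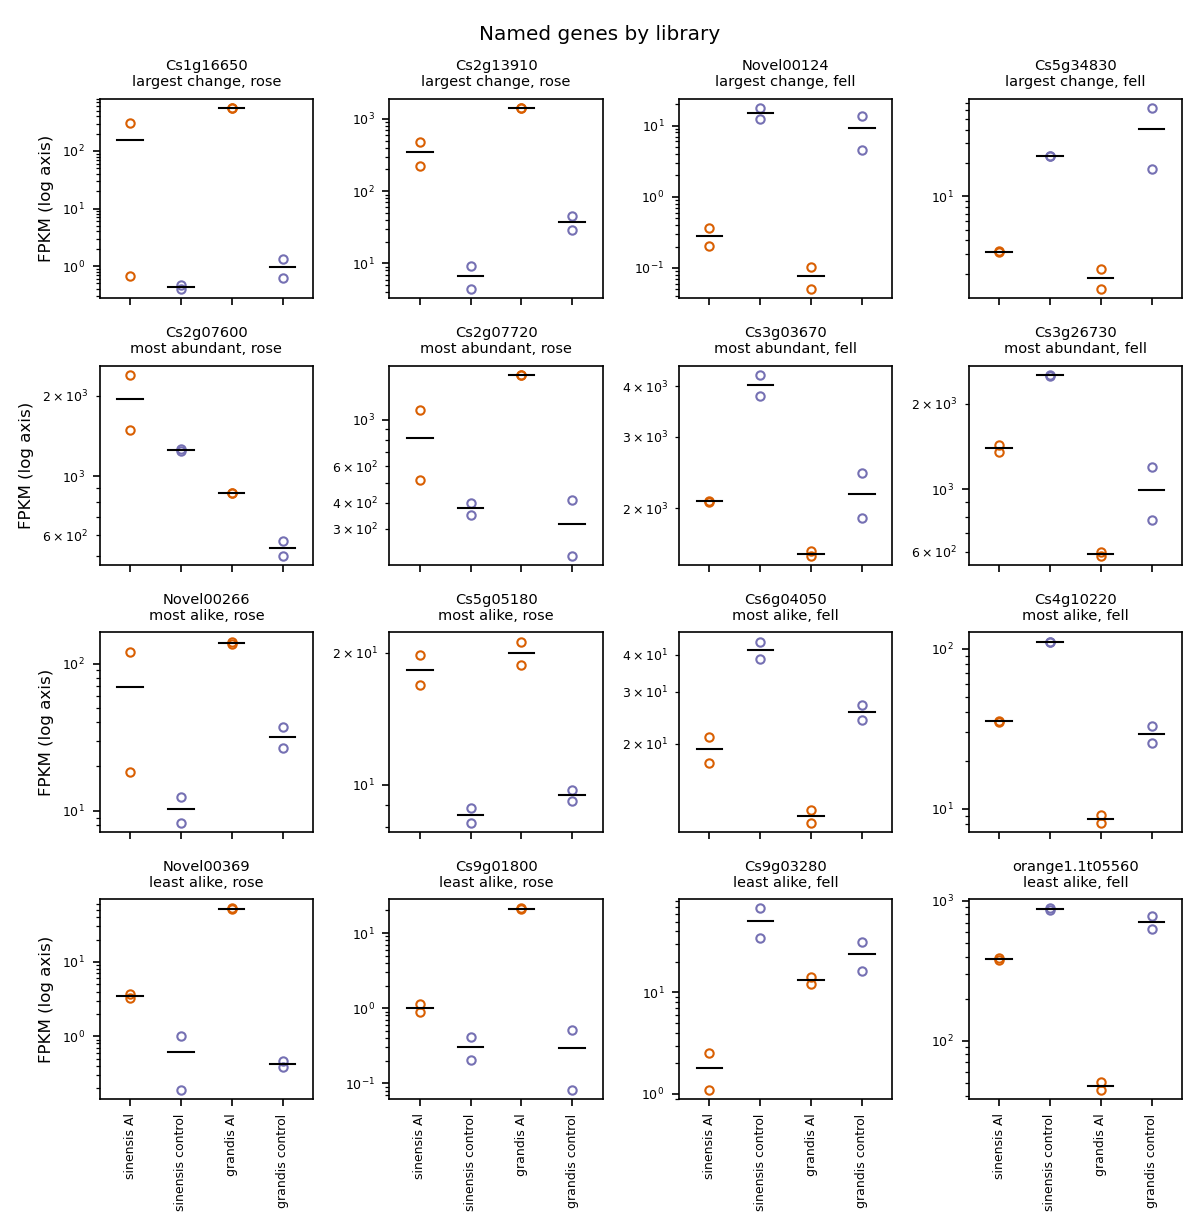
FPKM of the 16 named genes in each library (circles, log axes that differ between panels), with aluminium in orange, control in violet and a line at the mean of the 2 libraries of a group. Cs1g16650 and Cs2g07720 show C. sinensis aluminium libraries that lie apart from each other, whereas the libraries of C. grandis aluminium nearly coincide in most panels.

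Called genes were found at every level of expression, and more often among abundant transcripts. Of the 4461 genes tested with a mean below 5 FPKM, 4.53% rose and 2.76% fell. The shares were 7.70% and 6.14% of 5947 genes between 5 and 20 FPKM, 8.67% and 10.7% of 4811 genes between 20 and 100 FPKM, and 11% and 15.3% of 1108 genes of at least 100 FPKM. Rises thus outnumbered falls below 20 FPKM and falls outnumbered rises above it. With libraries centred on their median, a split by level that was added after seeing the data, falls outnumbered rises at each level, with 3.52% against 4.89% in the lowest and 9.21% against 20.3% in the highest. The median standard error of the averaged log2 change was 0.172, 0.138, 0.118 and 0.135 in the 4 ranges, from low to high, and its part in these shares was not tested. Among the genes of at least 100 FPKM, 74 rose and 18 fell by at least 2-fold.

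**Figure D3:**
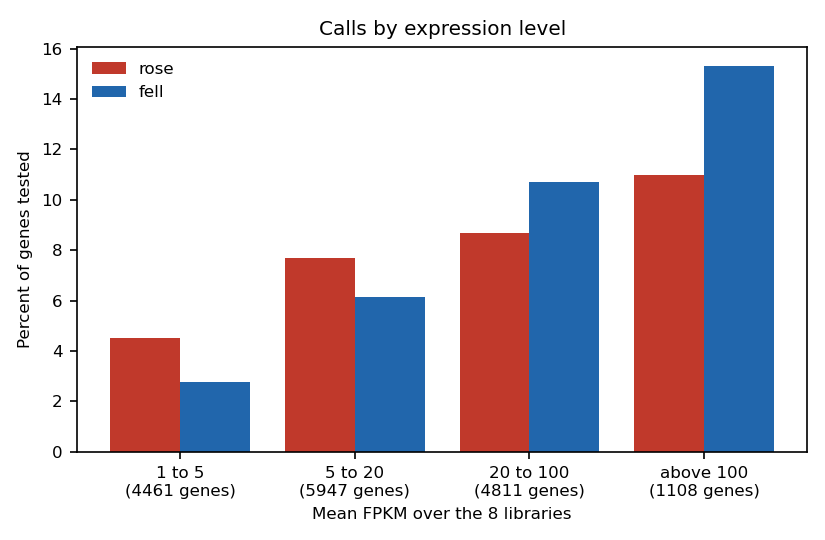
Percent of the genes tested that rose (red) or fell (blue) with aluminium on average, in 4 ranges of the mean FPKM over the 8 libraries. Both shares are higher in each range than in the one below it, and the falls go from 2.76% to 15.3%.

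In terms of reads, the called genes made up a sizeable part of the leaf mRNA. These shares are a description, since the same values chose the genes. Genes that rose took 11.3% and 8.14% of the reads in C. sinensis aluminium leaves against 4.97% and 4.93% in C. sinensis control leaves. In C. grandis they took 15.7% in both aluminium libraries against 6.11% and 6.36% in the control libraries. Aluminium and control libraries of a species did not overlap, and C. sinensis aluminium replicate 2 showed the smallest share among the aluminium libraries. Genes that fell took 8.68% and 9.0% of the reads in C. sinensis aluminium leaves against 13.7% and 13.9% in C. sinensis control leaves. They took 6.39% and 6.36% in C. grandis aluminium leaves against 11% and 9.92% in C. grandis control leaves. The species had different shares of both kinds already in control leaves. Counting error is at most 0.017 percentage points on any of these shares (95% Wilson interval), and covers counting only, not the spread between pools. It treats reads as independent, so PCR copies of a molecule, if kept, would make it too small.

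**Figure D4:**
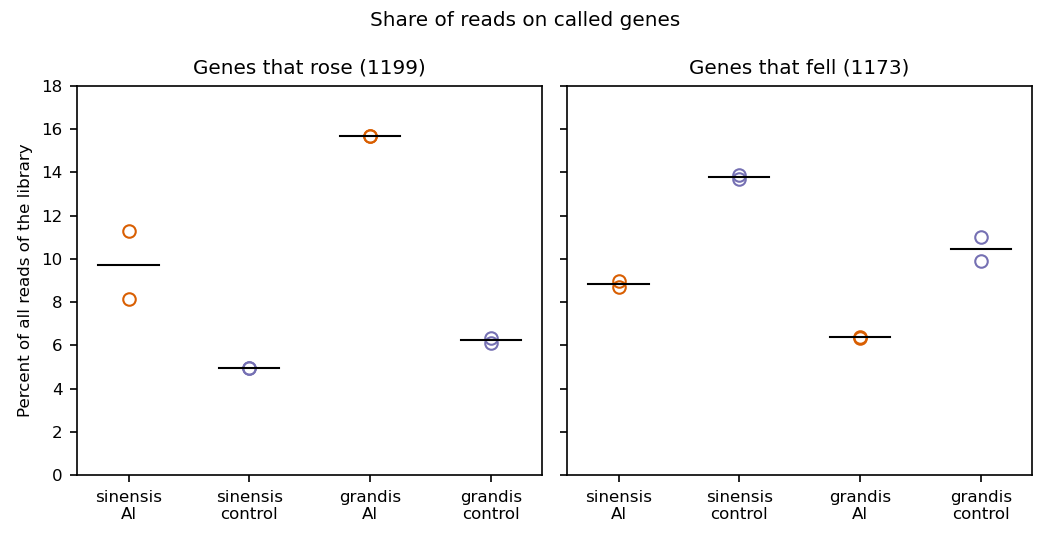
Percent of all reads of a library on the 1199 genes that rose (left) and the 1173 genes that fell (right), 1 circle per library and a line at the mean of a group. Aluminium libraries (orange) lie above the controls (violet) of their species on the left and below them on the right, by construction of the lists.

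Of the 4 most abundant called transcripts named here, all but Cs2g07720 changed by less than 2-fold on average. Cs2g07600, the most abundant gene that rose, stood at 1486 and 2400.4 FPKM in C. sinensis aluminium leaves against 1260.1 and 1242 FPKM in C. sinensis control leaves, and at 865 and 867 FPKM in C. grandis aluminium leaves against 570.2 and 501 FPKM in C. grandis control leaves. Aluminium exceeded control within each species, yet the C. grandis aluminium libraries lay below the C. sinensis controls. Its averaged log2 change was 0.64 (SE 0.17, limma adjusted p = 0.0405). This call was lost when any library but C. sinensis aluminium replicate 1 was left out, at limma adjusted p-values of 0.0518 to 0.124, and with libraries centred on their median (limma adjusted p = 0.0603).

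Cs2g07720 stood at 1117 and 515 FPKM in C. sinensis aluminium leaves against 351 and 402 FPKM in C. sinensis control leaves, and at 1644 and 1637 FPKM in C. grandis aluminium leaves against 414 and 222 FPKM in C. grandis control leaves. All 4 aluminium libraries exceeded all 4 controls. The averaged log2 change was 1.72 (SE 0.37, limma adjusted p = 0.0249). Leaving out C. sinensis aluminium replicate 2 or C. grandis control replicate 2 kept the call, and leaving out any of the other 6 libraries ended it, at limma adjusted p-values of 0.0517 to 0.087. The IDs just before it in the numbering, looked at after its values were seen, were called as well. Cs2g07700 stood at 109 and 1.96 FPKM in C. sinensis aluminium leaves against 1.1 and 1.08 FPKM in C. sinensis control leaves, and at 899 and 895 FPKM in C. grandis aluminium leaves against 17.7 and 17 FPKM in C. grandis control leaves. Like Cs1g16650, it was high in C. sinensis aluminium replicate 1 and near the control level in replicate 2. Its averaged log2 change was 4.36 (SE 1.03, limma adjusted p = 0.0323). The change of Cs2g07710, between them, was 0.58 (SE 0.13, limma adjusted p = 0.0296). Whether these IDs are near-identical copies that share reads is not known from the files.

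Among abundant transcripts that fell, Cs3g03670 stood at 2086 and 2072 FPKM in C. sinensis aluminium leaves against 3793 and 4268 FPKM in C. sinensis control leaves, and at 1568 and 1523 FPKM in C. grandis aluminium leaves against 2447 and 1891 FPKM in C. grandis control leaves. Groups did not overlap within a species, but C. grandis control replicate 2 lay below both C. sinensis aluminium libraries. Its averaged log2 change was -0.71 (SE 0.17, limma adjusted p = 0.0349). Leaving out any library but C. grandis control replicate 2 ended the call, at limma adjusted p-values of 0.0617 to 0.103. Cs3g26730 stood at 1430.3 and 1357 FPKM in C. sinensis aluminium leaves against 2506 and 2537 FPKM in C. sinensis control leaves, and at 580 and 601 FPKM in C. grandis aluminium leaves against 1200.4 and 780.1 FPKM in C. grandis control leaves. Aluminium was again below control within each species. The averaged log2 change was -0.78 (SE 0.16, limma adjusted p = 0.021), and the call was lost without either C. grandis aluminium library or either C. sinensis control library, at limma adjusted p-values of 0.065 to 0.0774. Both of these falls missed the threshold after quantile normalization, at limma adjusted p-values of 0.0609 and 0.0685.

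For most genes the measured level differed more between the species than with aluminium on average. Effects of opposite sign in the species cancel at least in part in that average. Effects of one sign were found in 9922 of the 16327 genes tested. The species share the same IDs, and whether reads of both were placed equally well was not tested. The gap between C. sinensis and C. grandis, averaged over treatments, exceeded the averaged aluminium change in 69.2% of the genes tested, in 32.0% of those that rose and in 37.3% of those that fell. Without the species term limma called 17 rises and 23 falls in place of 1199 and 1173. Only 722 genes had all 4 aluminium libraries above all 4 controls, 4.42% of those tested, and 826 had all 4 below, 5.06%. Separation within each species is a looser condition that all these genes meet by definition, so its counts cannot be smaller. Both aluminium libraries lay above both controls in each species for 2351 genes, 14.4% of those tested, and below both for 2381 genes, 14.6%. With libraries centred on their median these counts were 1926 and 3070.

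The effects in the species were then set beside the averaged effect. Each species has its own aluminium and control libraries, but both enter the averaged value, and a gene with opposite effects has a large residual under the additive model. That all 1199 rises and all 1173 falls had effects of one sign in both species therefore follows in part from the test. The genes that rose had a median log2 change of 0.69 for C. sinensis and 0.83 for C. grandis, where the medians over all genes tested were 0.08 and -0.09. For the genes that fell the medians were -0.55 for C. sinensis and -0.62 for C. grandis. The log2 effects of the species lay within a factor of 2 of each other in 855 genes that rose and 947 that fell, that is 71.3% and 80.7%. Among all genes tested this held for 4684 of the 9922 with effects of one sign. Unequal effects also enlarge the residual, so the call itself favours like effects and these shares are a description. Where they lay further apart, the effect in C. grandis was the larger in 257 of 344 rises and 176 of 226 falls, and also in 3003 of 5238 such genes among all those tested. At least a 2-fold change in each species taken singly was seen in 251 rises and 76 falls. In the fit of a mean per group over all 8 libraries, 6.34% of the genes tested were called in C. sinensis and 16.1% in C. grandis. That fit pools the spread of all groups for each gene, so these shares are not independent results of the species.

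**Figure D5:**
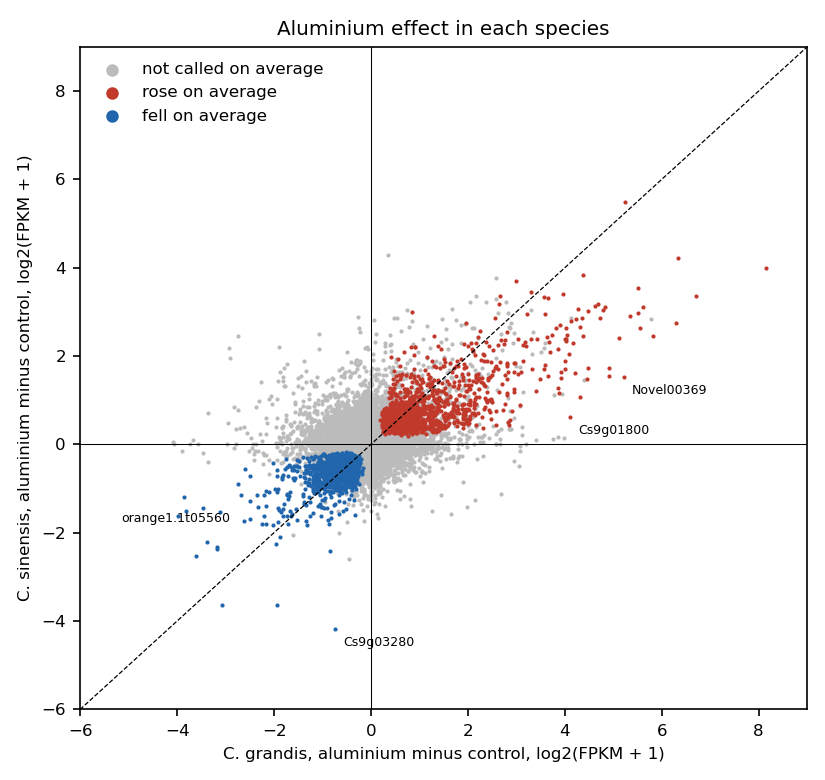
Log2 change with aluminium in C. sinensis (vertical) against C. grandis (horizontal), 1 point per gene tested on the log2(FPKM + 1) scale, with a dashed line of equal effects. Genes called on average lie in the quadrants of one sign, and labels mark the 2 genes that rose and the 2 that fell with the largest called differences between the species.

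Some called genes changed by at least 2-fold and by nearly the same amount in both species. Cs5g05180 stood at 19.7 and 16.9 FPKM in C. sinensis aluminium leaves against 8.83 and 8.18 FPKM in C. sinensis control leaves, and at 18.8 and 21.2 FPKM in C. grandis aluminium leaves against 9.20 and 9.74 FPKM in C. grandis control leaves. The species had nearly one level in each treatment, and the log2 changes were 1.02 for C. sinensis and 1.0 for C. grandis. The averaged change was 1.01 (SE 0.09, limma adjusted p = 0.0032). Novel00266 rose by a log2 change of 2.11 (SE 0.49, limma adjusted p = 0.0303), from 2.12 for C. sinensis and 2.11 for C. grandis. Its close match hides a gap between replicates, since it stood at 119 and 18.4 FPKM in C. sinensis aluminium leaves against 8.27 and 12.4 FPKM in C. sinensis control leaves. In C. grandis it stood at 141 and 137 FPKM in aluminium leaves against 26.5 and 37.3 FPKM in control leaves. The call for Novel00266 was lost without any one of C. sinensis control replicates 1 and 2, C. grandis aluminium replicates 1 and 2 and C. grandis control replicate 1, at limma adjusted p-values of 0.0701 to 0.0915. Left without C. sinensis aluminium replicate 1 its log2 change was 1.58, and left without replicate 2 it was 2.64.

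The 2 genes named for the most alike falls kept a difference of level between the species. Cs4g10220 stood at 35.6 and 34.8 FPKM in C. sinensis aluminium leaves against 110 and 111 FPKM in C. sinensis control leaves, and at 8.14 and 9.10 FPKM in C. grandis aluminium leaves against 33.0 and 25.6 FPKM in C. grandis control leaves. The C. grandis controls lay below the C. sinensis aluminium libraries, while the decline within each species was of one size. Averaged, the log2 change was -1.63 (SE 0.10, limma adjusted p = 0.0015), from -1.62 for C. sinensis and -1.65 for C. grandis. Cs6g04050 stood at 17.3 and 21.0 FPKM in C. sinensis aluminium leaves against 38.5 and 44.3 FPKM in C. sinensis control leaves, and at 10.8 and 12 FPKM in C. grandis aluminium leaves against 27.0 and 24.1 FPKM in C. grandis control leaves. Averaged, the log2 change was -1.09 (SE 0.10, limma adjusted p = 0.0032), with all 4 aluminium libraries below all 4 controls. The calls for Cs5g05180, Cs4g10220 and Cs6g04050 held whichever library was left out, with limma adjusted p-values of at most 0.0238. The smallest differences between species chose these genes, so their likeness is a description.

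Other called genes had effects of unequal size. Whether the effect differed between the species was tested by limma with a mean per group, and such a difference was called for 378 genes, 2.32% of those tested. This count rested on single libraries. Leaving out replicate 1 or 2 of C. grandis aluminium gave 20 or 16 calls, and leaving out replicate 1 or 2 of the C. sinensis controls gave 39 or 42. The same for C. sinensis aluminium gave 1495 or 911, and for the C. grandis controls 1069 or 582. Novel00369 stood at 3.23 and 3.65 FPKM in C. sinensis aluminium leaves against 0.191 and 1.02 FPKM in C. sinensis control leaves, and at 52.7 and 51.4 FPKM in C. grandis aluminium leaves against 0.382 and 0.469 FPKM in C. grandis control leaves. It rose in both, with an averaged log2 change of 3.37 (SE 0.68, limma adjusted p = 0.0211). Its C. sinensis effect less its C. grandis effect was -3.70 (SE 0.35, limma adjusted p of the difference = 0.00815). Its controls held at most 32 reads in a library, and with voom on recovered reads the averaged log2 change was 5.498. Cs9g01800 stood at 0.879 and 1.12 FPKM in C. sinensis aluminium leaves against 0.410 and 0.206 FPKM in C. sinensis control leaves, and at 20.7 and 21.3 FPKM in C. grandis aluminium leaves against 0.0823 and 0.505 FPKM in C. grandis control leaves. Its averaged log2 change was 2.36 (SE 0.64, limma adjusted p = 0.046), from 0.61 for C. sinensis and 4.11 for C. grandis. Outside C. grandis aluminium leaves it had at most 16 reads in a library, and log2(FPKM + 1) understates its change: with voom on recovered reads the averaged log2 change was 4.71. Its call on average was lost without any one of the control libraries or C. grandis aluminium libraries, at limma adjusted p-values of 0.0611 to 0.136, and with libraries centred on their median (limma adjusted p = 0.0558). That of Novel00369 was lost without C. sinensis control replicate 1, C. grandis control replicate 1 or either C. grandis aluminium library, at limma adjusted p-values of 0.0522 to 0.0736.

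Falls of unequal size went both ways. Transcript orange1.1t05560 stood at 375 and 390 FPKM in C. sinensis aluminium leaves against 886 and 861 FPKM in C. sinensis control leaves, and at 50.6 and 44.4 FPKM in C. grandis aluminium leaves against 635 and 784 FPKM in C. grandis control leaves. The species stood close in control leaves and far apart with aluminium. Its averaged log2 change was -2.53 (SE 0.49, limma adjusted p = 0.0183), from -1.19 for C. sinensis and -3.87 for C. grandis, and the C. sinensis effect less the C. grandis effect was 2.68 (SE 0.20, limma adjusted p of the difference = 0.00396). Its call on average was lost without either C. grandis aluminium library or C. grandis control replicate 1, at limma adjusted p-values of 0.052 to 0.0684. Cs9g03280 had the reverse order, with log2 changes of -4.19 for C. sinensis and -0.74 for C. grandis. It stood at 2.51 and 1.1 FPKM in C. sinensis aluminium leaves against 67.6 and 34.6 FPKM in C. sinensis control leaves, and at 12.2 and 14.1 FPKM in C. grandis aluminium leaves against 31.1 and 16.4 FPKM in C. grandis control leaves. Its averaged change of -2.46 (SE 0.67, limma adjusted p = 0.0478) was just past the threshold. Leaving out any library but C. grandis control replicate 2 ended that call, at limma adjusted p-values of 0.0721 to 0.122, and so did median centring (limma adjusted p = 0.0509).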

How the data were processed

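The authors deposited FPKM, 1 table per group with a column per library, per the file headers. Per the submitters' processing notes, the tools were TopHat2, Bowtie, HTSeq and edgeR 1.18.0, with no role stated; genome and annotation are not given in these notes or in the labels. Groups came from the titles. The members, lists and tests were chosen with earlier results of these data known.

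FPKM were transformed to log2(FPKM + 1) without further scaling, and 16327 of 30297 IDs with a mean of at least 1 FPKM over the 8 libraries were tested (limma 3.58.1, R 4.3.3). The averaged effect used species and treatment as additive terms (5 residual degrees of freedom) and a variance prior with a trend. The difference between species and the effects within species used a mean per group (4 residual degrees of freedom). P-values are two-sided and Benjamini-Hochberg adjusted over all genes tested. They measure the spread between libraries labelled as separate pools, 2 per group. For C. grandis aluminium this spread was little above counting error, so an alternative merged those libraries. In the averaged test the residual also holds the difference between the effects of the species.

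Named genes were at most 2 that rose and 2 that fell for each of 4 questions: the largest averaged change (at least 5 FPKM in the higher treatment and full separation within each species), the highest mean FPKM, the most alike effects among called changes of at least 2-fold, and the largest called difference between species. No gene list could be matched to IDs.

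Whole reads, lengths and totals were recovered from the steps of the FPKM, with 100% of the values tested within 0.01 of a whole number, a weak check since the search seeks whole numbers. They served for the totals, the shares of reads, the spread and a voom alternative. In simulated libraries of 16242 genes, 100 genes were changed 2-fold and 100 were changed 1.5-fold, alike in both species. Of these 91% and 59% were called, and 2.6% of the calls were false. The simulation gave all genes of a group the same spread and no difference between the effects of the species. These rates therefore need not hold for the real libraries.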

Additional observations from a re-analysis of the deposited data

Results flagged for a closer look

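For 4 of the named genes the aluminium effect differed between the species by the limma test of the difference. The C. sinensis effect less the C. grandis effect (log2) was -3.70 for Novel00369, -3.49 for Cs9g01800 (limma adjusted p = 0.00482) and -3.45 for Cs9g03280 (limma adjusted p = 0.0448). It was 2.68 for orange1.1t05560. These genes were chosen among those that pass this test, for the size of their difference, so passing it is a condition of the choice. The values are a description of the most unequal genes among those called on average.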

How the results depend on the processing

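Counts of genes called on average are given as rises with falls, against 1199 with 1173. They were 17 with 23 without the species term, 186 with 221 with the libraries of C. grandis aluminium merged into 1, and 1753 with 1851 with a mean per group. Leaving out 1 library gave 179 to 1565 rises and 217 to 1505 falls. Of the calls without C. grandis aluminium replicate 1 or 2, all 423 and all 396 were also called with 8 libraries. Apart from these and the replicate block given below, the alternatives stayed within a factor of 1.5, among them quantile normalization (954 with 1407), no filter on low values (810 with 871) and voom on recovered reads (1168 with 1255, and 2173 of these genes were also called on FPKM). Replicate numbers were not taken to pair libraries: deviations of libraries of one number correlated by 0.046 in C. sinensis and 0.019 in C. grandis. With the replicate block, which leaves fewer residual degrees of freedom, 431 genes rose and 411 fell, and 36 differences between species were called against 378 without it. Those differences numbered 240 at a mean of at least 5 FPKM, 15 with the merged libraries, and 16 to 1495 leaving out 1 library. Over 20 alternatives for each of 16 named genes none reversed, 213 of 320 results stayed past the threshold and 107 did not. The cause of these changes was not tested. Counts of reads limit the lowest values, as for Novel00124, Novel00369 and Cs9g01800.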

Other observations

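No gene was below 0.1 FPKM in all 4 libraries of one treatment and at least 1 FPKM in all 4 of the other. At the median length this limit is near 3 reads, so a few reads in 1 library break the condition. Novel00124 failed it with 4 and 8 reads in C. sinensis aluminium leaves, so the count does not settle whether transcripts were switched on or off. Of the genes tested, 246 stood at least 2-fold higher and 52 at least 2-fold lower with aluminium on average without passing the limma threshold.

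IDs of the series Cs1g to Cs8g had 7.06% to 9.04% rises and 6.89% to 8.49% falls, compared with 7.34% and 7.18% of all genes tested. With libraries centred on their median, added after seeing the data, their falls were 9.68% to 11.1%. The 2328 genes tested of the series orange1.1t had 6.27% rises and 5.58% falls, and 5.03% and 7.9% after centring. Cs9g had 5.0% rises and 9.11% falls among its 1021 genes tested, and 4.21% and 11.9% with libraries centred on their median. The 557 genes tested whose IDs belong to neither the Cs nor the orange1.1t series had 6.46% rises and 2.33% falls, and 5.03% and 4.49% after centring. Their median level was 2.66 FPKM and their median length 896 bp, against median levels of 10.3 to 15.0 FPKM in the other series.

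The median length was 1838 bp for genes that rose and 1527 bp for those that fell, against 1720 bp for all genes tested. Among 8861 pairs of neighbours in the numbering of Cs1g to Cs9g with both IDs tested, both rose in 1.14%, both fell in 0.813% and one rose while the other fell in 1.02%. Runs of at least 3 consecutive IDs called in one direction numbered 11 for rises and 8 for falls, and the longest held 4 IDs. Of all genes tested 7.34% rose and 7.18% fell. Whether neighbours were called together more often than these shares imply was not tested.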
